A study of Mus musculus with 6 samples.

Results

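The 10 genes described here encode enzymes that build sphingolipids, and they were taken by symbol from the 24015 genes of the count tables: Fa2h, Ugt8a and Gal3st1 of the galactolipid branch, and Cers2, Cers6, Sptlc1, Sptlc2, Kdsr, Degs1 and Sgms1 of the steps that all sphingolipids share or that lead to sphingomyelin. Of these, 9 passed the filter on low counts and were among the 11371 genes tested, whereas Cers6 had too few reads. The question was whether transcripts of the steps that serve myelin changed differently from those of the general steps.

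RNA was measured in sciatic nerves of mice at postnatal day 14, with 3 libraries per genotype and each library made from a pool of 3 nerves. Control mice (ctrl) were Rnf40 fl/fl without Cre, and Rnf40ΔSC mice (cko) were Dhh::Cre, Rnf40 fl/fl, so that Rnf40, a subunit of the ligase that attaches ubiquitin to histone H2B, was deleted in developing Schwann cells. The Cre transgene acts in the Schwann cell lineage, while the RNA came from the whole nerve with its fibroblasts, perineurial, endothelial and immune cells and, by their markers, some muscle and fat. The labels give a mixed 129SvJ/C57Bl/6J background and the NEB Next Ultra kit, whereas the study's methods give C3H × C57Bl/6J and a directional kit; all 6 libraries carry the same labels in this respect.

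Control replicates 1, 2 and 3 held 1317167, 1992622 and 2468765 counted reads, and the Rnf40ΔSC replicates, in the same order of their numbers, 2184268, 1459387 and 2186710. Values below are normalised counts, that is, counts scaled by TMM to the mean library size, unless another scale is named. The 10 most counted genes of each library held 21.0%, 22.1% and 21.8% of control reads and 15.0%, 12.2% and 12.0% of Rnf40ΔSC reads. The TMM factors were 0.928, 0.894 and 0.914 in control and 1.07, 1.10 and 1.11 in Rnf40ΔSC libraries. Scaling to equal totals, used as an alternative, applies no such factor. Rnf40 itself stood at 130.2, 126 and 142 in control and at 90.2, 90.4 and 94.2 in Rnf40ΔSC libraries, without overlap. Its log2 fold change was -0.54 (SE 0.14, edgeR adjusted p = 0.00243), and -0.27 (adjusted p = 0.116) when libraries were scaled to equal totals, a scaling that moved the median of all genes from -0.002 to 0.26; over all alternatives the adjusted p ran from 0.00235 to 0.116. The counts cover the whole gene, including exons outside the deleted part, and cells without Cre.

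Synthesis of sphingolipids starts from serine and palmitoyl-CoA, which serine palmitoyltransferase joins in the endoplasmic reticulum. Reduction, acylation by a ceramide synthase and desaturation then give ceramide, which the cell turns into sphingomyelin, glucosylceramide or, in myelinating glia, galactosylceramide. Galactosylceramide and its sulfated form, sulfatide, are abundant lipids of myelin, often carry a hydroxylated very long fatty acid, and are needed for stable myelin and for its contacts with the axon.

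The transcripts of the galactolipid branch were all lower in Rnf40ΔSC nerves, and those of the shared steps divided into genes that fell and genes that did not pass the test. At an adjusted p of at most 0.05 in edgeR's quasi-likelihood test, 6 of the 10 genes were lower, namely Fa2h, Ugt8a, Gal3st1, Cers2, Degs1 and Sgms1, where 16.2% of all genes tested were called lower. None was higher (0 at an unadjusted p of at most 0.05 and 0 by DESeq2 with or without its fold-change prior), where 15.5% of all genes tested were called higher. Scaling to equal totals called 1, Sptlc1, where 32.9% of all genes tested were called higher. With the study's further limits, which ask for a log2 fold change of 0.8 or more in either direction and a base mean (mean normalised count) of 20 or more, 4 of the 10 were lower (Fa2h, Ugt8a, Gal3st1 and Cers2; 5.05% of all genes) and 0 higher (3.73% of all genes). The normalised counts of the genotypes did not overlap for 8 of the 9 genes tested, with 7 below control (21.6% of all genes tested) and 1 above it (22.0%). The median log2 fold change was -1.37 for the 3 galactolipid genes and -0.41 for the 6 shared genes that passed the filter, beside -0.002 for all genes tested. These medians were -1.11 and -0.15 with equal totals, and with Cers2 counted in the galactolipid branch -1.36 and -0.25.

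**Figure D1:**
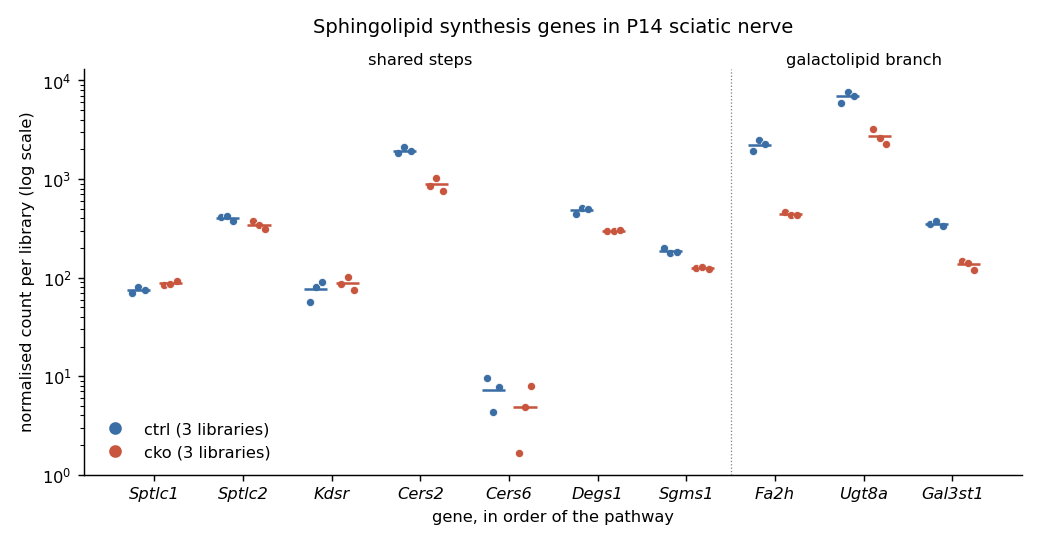
Normalised count of each gene in each library on a log scale, with control libraries in blue, Rnf40ΔSC libraries in red and a bar at each mean. Fa2h, Ugt8a, Gal3st1, Cers2, Degs1 and Sgms1 show no overlap with lower values in Rnf40ΔSC libraries, while Kdsr and Cers6 overlap.

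In the galactolipid branch, Fa2h encodes the hydroxylase that adds a hydroxyl group to the fatty acids that enter myelin ceramides. Its normalised counts were 1910.3, 2504 and 2272 in control libraries and 459.5, 432 and 431 in Rnf40ΔSC libraries. The Rnf40ΔSC values lay close together and were 5.06 times lower on average than the control values, with a log2 fold change of -2.34 (SE 0.10, 95% interval -2.53 to -2.14, edgeR adjusted p = 5.86e-21). Ordered by log2 fold change from the lowest, Fa2h took place 37 of the 11371 genes tested.

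Ugt8a encodes the transferase that adds galactose to ceramide, the committed step to galactosylceramide. Control libraries held 5918, 7719 and 7018 normalised counts and Rnf40ΔSC libraries 3195, 2640.2 and 2278. The groups were apart, but the Rnf40ΔSC values spread more widely (SD 462 around a mean of 2704) than those of Fa2h (SD 16.3 around 441). The log2 fold change was -1.35 (SE 0.14, 95% interval -1.66 to -1.03, edgeR adjusted p = 8.54e-05).

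Gal3st1 encodes the sulfotransferase that turns galactosylceramide into sulfatide. Its normalised counts were 353, 372 and 336 in control and 148, 142 and 119.7 in Rnf40ΔSC libraries, again without overlap. The log2 fold change was -1.37 (SE 0.11, 95% interval -1.59 to -1.15, edgeR adjusted p = 1.02e-12).

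The entry enzyme of the pathway is a dimer whose subunits Sptlc1 and Sptlc2 join serine to palmitoyl-CoA. Sptlc1 stood at 69.9, 79.5 and 74.9 normalised counts in control and at 84.4, 85.6 and 91.8 in Rnf40ΔSC libraries. Every Rnf40ΔSC value lay above the control values, yet the log2 fold change of 0.22 (SE 0.16, 95% interval -0.10 to 0.54) did not pass the test (edgeR adjusted p = 0.313). It did so only with libraries scaled to equal totals (log2 fold change 0.49, adjusted p = 0.0132; 0.0132 to 0.505 over all alternatives).

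Sptlc2, which carries the catalytic site, stood at 411, 426 and 379 normalised counts in control and at 373, 342 and 308 in Rnf40ΔSC libraries. Here every Rnf40ΔSC value lay below control, and the log2 fold change was -0.25 (SE 0.10, 95% interval -0.45 to -0.045, edgeR adjusted p = 0.0553). The value passed the threshold without Rnf40ΔSC replicate 1 (-0.31, adjusted p = 0.0451), was -0.16 (adjusted p = 0.212) without Rnf40ΔSC replicate 3, and turned to 0.019 (adjusted p = 0.899) with libraries scaled to equal totals, and over all alternatives the adjusted p ran from 0.0451 to 0.899. Kdsr, the reductase of the next step, had 57.2, 80.6 and 91.2 normalised counts in control and 86.1, 102 and 74.2 in Rnf40ΔSC libraries. The groups overlapped, with a log2 fold change of 0.15 (SE 0.17, 95% interval -0.20 to 0.49, edgeR adjusted p = 0.561). The value depended on single libraries, at 0.0052 without control replicate 1, 0.037 without Rnf40ΔSC replicate 2 and 0.30 without control replicate 3, and was 0.41 with equal totals (adjusted p = 0.0533; 0.0533 to 0.986 over all alternatives).

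Ceramide synthases attach the fatty acid, and each prefers a range of chain lengths. Cers2, which uses the very long chains found in myelin galactolipids, stood at 1834, 2098 and 1907 normalised counts in control and at 854, 1031 and 763 in Rnf40ΔSC libraries. All Rnf40ΔSC libraries were far below control, with a log2 fold change of -1.14 (SE 0.10, 95% interval -1.34 to -0.95, edgeR adjusted p = 3.89e-12). Cers6, which makes ceramides with shorter chains, had 6, 4 and 9 raw reads in control and 2, 4 and 10 in Rnf40ΔSC libraries. It failed the filter on low counts, and at this depth a difference between genotypes was not detectable.

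Degs1, the desaturase that completes ceramide, stood at 441, 512 and 497 normalised counts in control and at 300.5, 298 and 303 in Rnf40ΔSC libraries. The values fell in every Rnf40ΔSC library to a narrow range, with a log2 fold change of -0.69 (SE 0.10, edgeR adjusted p = 4.80e-07). Sgms1, which makes sphingomyelin in the Golgi apparatus, stood at 202, 176 and 182 in control and at 124, 128 and 121 in Rnf40ΔSC libraries. It was lower as well, with a log2 fold change of -0.58 (SE 0.12, edgeR adjusted p = 0.000259). With equal totals the values were -0.42 for Degs1 and -0.32 for Sgms1 (edgeR adjusted p = 0.000596 and 0.0384).

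**Figure D2:**
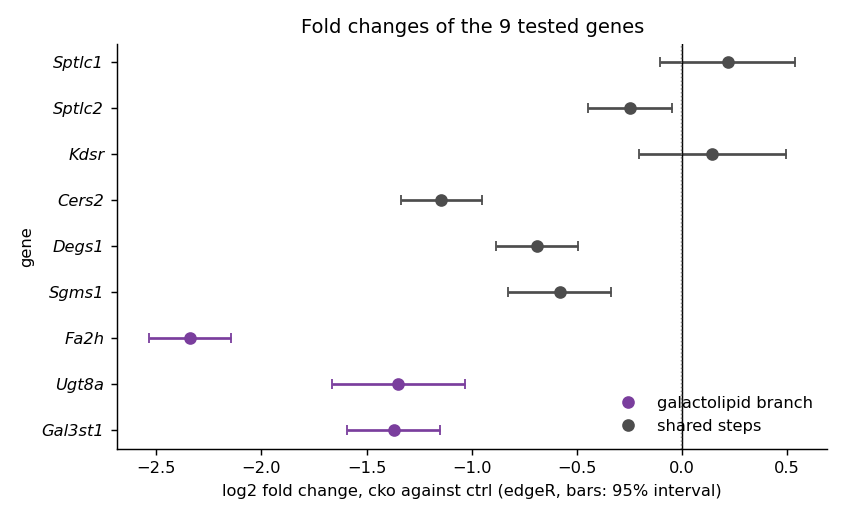
Log2 fold change of the 9 genes tested, Rnf40ΔSC against control, with 95% intervals derived from the F statistic of the edgeR test. Purple marks the galactolipid branch and grey the shared steps. The intervals of Sptlc1 and Kdsr include 0, and Fa2h lies at -2.34.

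Levels were compared between genes per length, as TMM-scaled CPM per kilobase of annotated exon. The length joined all annotated exons of a gene, 10309 bases for Sgms1 and 5582 for Kdsr, and can exceed that of the transcript present. In control nerves the order was Ugt8a (990 ± 130.5, mean ± SD, n = 3), Fa2h (382 ± 51.2), Cers2 (274 ± 19.2), Degs1 (96.1 ± 7.38), Gal3st1 (89.1 ± 4.52), Sptlc2 (25.7 ± 1.54), Sptlc1 (14.7 ± 0.949), Sgms1 (9.34 ± 0.657), Kdsr (7.04 ± 1.61) and Cers6 (0.474 ± 0.173). Degs1 and Gal3st1 overlapped in range and were in this order in 2 of 3 control libraries, and no other neighbours overlapped. In Rnf40ΔSC nerves Ugt8a remained in place 1 at 389 ± 66.4 (n = 3), Cers2 (124 ± 19.1) lay above Fa2h (75.5 ± 2.79), and Kdsr (8.08 ± 1.31) above Sgms1 (6.22 ± 0.163), with no overlap between neighbours. Fa2h thus went from place 2 to place 3 on this scale. Lengths came from an annotation that may differ from the one used for counting, which the sources used here do not name.

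The share of the 10 genes' raw counts held by Fa2h, Ugt8a and Gal3st1 does not depend on scaling between libraries. It was 73.0%, 75.8% and 75.4% in control (exact 95% binomial intervals 72.0 to 74.0, 75.1 to 76.6 and 74.7 to 76.1, covering counting error only) and 67.6%, 61.7% and 62.9% in Rnf40ΔSC libraries (66.4 to 68.7, 60.3 to 63.2 and 61.6 to 64.2). The mean was 74.7% ± 1.52 (SD, n = 3) in control and 64.1% ± 3.09 in Rnf40ΔSC nerves. The galactolipid genes therefore took a smaller part of the raw counts of these 10 genes in each Rnf40ΔSC library.

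Pairs of enzymes that compete for ceramide or act in sequence were compared as ratios of raw counts within a library, where 3 against 3 libraries cannot give an exact two-sided permutation p below 0.10. Ugt8a and Sgms1 draw on ceramide for galactosylceramide and for sphingomyelin. Their ratio was 29.3, 43.7 and 38.5 in control and 25.7, 20.7 and 18.8 in Rnf40ΔSC libraries, a log2 difference of -0.77 (SE 0.22; exact permutation p = 0.1, adjusted over 5 ratios 0.167). The ratio of Ugt8a to Ugcg, whose enzyme makes glucosylceramide, was 71.7, 112 and 92.6 in control and 39.8, 33.7 and 34.8 in Rnf40ΔSC libraries. This was a log2 difference of -1.33 (SE 0.20; exact permutation p = 0.1, adjusted 0.167).

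Fa2h to Degs1 gave 4.33, 4.89 and 4.58 in control and 1.53, 1.45 and 1.42 in Rnf40ΔSC libraries, a log2 difference of -1.65 (SE 0.06; exact permutation p = 0.1, adjusted 0.167). Gal3st1 to Ugt8a, the step from galactosylceramide to sulfatide, gave 0.0596, 0.0481 and 0.0478 in control and 0.0464, 0.0539 and 0.0525 in Rnf40ΔSC libraries. These values overlapped, with a log2 difference of -0.021 (SE 0.12; exact permutation p = 0.8). Cers2 to Cers6 ranged from 193 to 482 in control and from 95.6 to 516 in Rnf40ΔSC libraries, with a log2 difference of -0.37 (SE 0.81; exact permutation p = 0.8), and it rests on 2 to 10 Cers6 reads per library.

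A further 4 ratios were chosen after the data had been seen. Fa2h to Ugt8a was nearly constant in control at 0.323, 0.324 and 0.324, and was 0.144, 0.163 and 0.189 in Rnf40ΔSC libraries. Fa2h was thus reduced more than Ugt8a in every Rnf40ΔSC library, by a log2 difference of -0.98 (SE 0.11; exact permutation p = 0.1, the smallest possible, and 0.1 adjusted over 4 ratios). The other ratios took Sox10, a transcription factor of the Schwann cell lineage, as the denominator. Fa2h to Sox10 was 2.00, 2.37 and 2.097 in control and 0.730, 0.752 and 0.728 in Rnf40ΔSC libraries (log2 difference -1.55, SE 0.08). The log2 differences were -0.57 (SE 0.14) for Ugt8a and -0.59 (SE 0.12) for Gal3st1, without overlap between genotypes (exact permutation p = 0.1 for each).

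**Figure D3:**
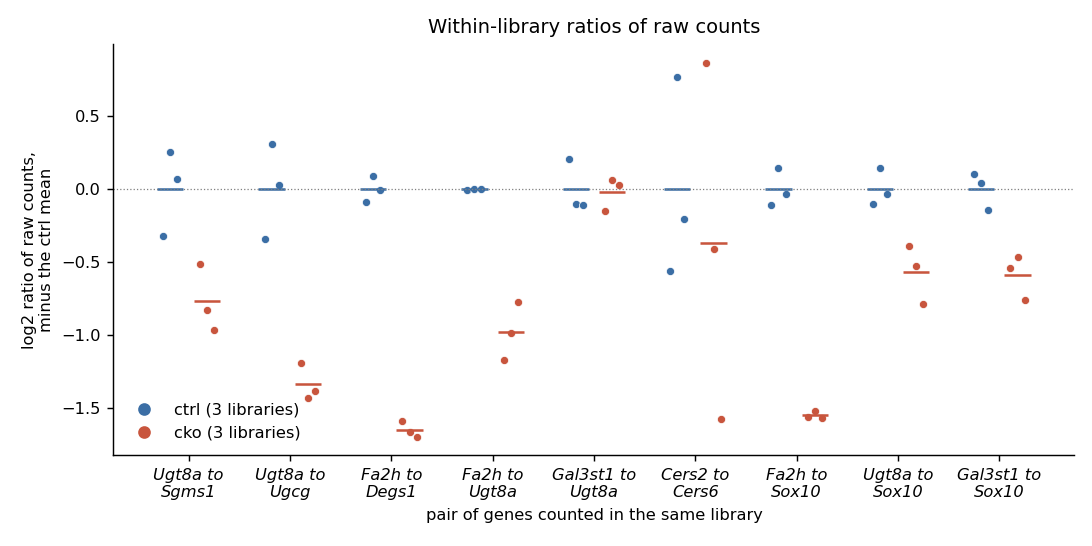
Log2 ratio of raw counts of paired genes in each library, minus the control mean, with control libraries in blue, Rnf40ΔSC libraries in red and bars at the means. Only Gal3st1 to Ugt8a and Cers2 to Cers6 overlap between genotypes among the 9 ratios plotted.

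Promoter sequences from RefSeq (GRCm38.p6), which run from 250 bases before to 50 after the start of transcription, were matched for 9 of the 10 genes with 15 entries in all; Fa2h had none. They were searched on both strands for the letters GCGTGGG, a core bound by EGR factors such as the myelin regulator Egr2, and for the E-box, spelled CACGTG. A sterol element of the SREBP factors was searched as TCACNCCAC, and an element of SOX factors was searched as ACAAAG. The promoter elements known as the CCAAT box and the TATA box were searched by the letters of the former's name and by TATAAA. None of these strings contains another. The promoters of Ugt8a, Gal3st1, Cers2 and Degs1, genes that fell, are shown in the orientation of the gene, with matches in capitals; for Gal3st1 and Cers2, which have 3 and 2 entries, the entry with the lowest coordinate is given. They lie at chr3:125938603-125938902 on the minus strand (Ugt8a), chr11:3983386-3983685 on the plus strand (Gal3st1), chr3:95314940-95315239 on the plus strand (Cers2) and chr1:182282146-182282445 on the minus strand (Degs1).
Ugt8a: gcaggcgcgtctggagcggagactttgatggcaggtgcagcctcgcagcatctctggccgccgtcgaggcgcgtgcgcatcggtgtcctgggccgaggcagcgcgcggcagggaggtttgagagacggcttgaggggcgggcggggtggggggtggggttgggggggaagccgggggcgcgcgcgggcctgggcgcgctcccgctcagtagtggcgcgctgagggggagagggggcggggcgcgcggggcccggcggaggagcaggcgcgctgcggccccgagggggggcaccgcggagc
Gal3st1: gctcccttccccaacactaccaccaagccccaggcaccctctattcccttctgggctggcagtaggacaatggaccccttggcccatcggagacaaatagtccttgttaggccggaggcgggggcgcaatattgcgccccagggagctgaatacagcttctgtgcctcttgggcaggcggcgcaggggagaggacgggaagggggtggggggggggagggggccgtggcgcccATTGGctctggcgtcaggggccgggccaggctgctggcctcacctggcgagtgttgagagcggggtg
Cers2: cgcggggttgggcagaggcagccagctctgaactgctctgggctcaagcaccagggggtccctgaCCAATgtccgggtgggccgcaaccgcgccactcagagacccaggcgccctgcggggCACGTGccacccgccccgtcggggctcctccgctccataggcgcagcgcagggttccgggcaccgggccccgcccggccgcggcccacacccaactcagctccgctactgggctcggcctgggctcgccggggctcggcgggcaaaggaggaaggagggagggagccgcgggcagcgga
Degs1: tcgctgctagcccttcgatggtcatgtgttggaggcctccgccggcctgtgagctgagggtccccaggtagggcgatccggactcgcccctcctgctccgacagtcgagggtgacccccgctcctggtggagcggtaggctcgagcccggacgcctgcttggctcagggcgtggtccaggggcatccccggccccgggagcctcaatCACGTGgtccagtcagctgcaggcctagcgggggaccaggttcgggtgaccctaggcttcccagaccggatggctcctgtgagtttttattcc
The capitals in Gal3st1 mark CCAAT box letters on the reverse strand, those in Degs1 an E-box, and those in Cers2 a CCAAT box followed by an E-box. Ugt8a held none of the searched letters in this window. E-box letters occurred in 3 of the 15 entries (Degs1, Cers2 and Cers6) and in 7.15% of all 32851 promoters, and CCAAT box letters in 8 of 15 (6 genes) and in 37.4% of all promoters. Of the 3 Gal3st1 entries 2 share 285 bases, and the same CCAAT box letters were counted in both. EGR letters occurred in 1 entry (Cers6; 5.04% of all promoters), SOX letters in 2 (Sptlc1 and Sgms1; 18.7%), TATA box letters in 1 (Sgms1; 13.6%) and SREBP letters in 0 (1.24%). G and C made up 78.3% of the Ugt8a, 75.0% of the Cers2, 67.3% of the Degs1 and 67.0% of the Gal3st1 sequence shown, beside a median of 52.7% for all promoters. The entries not shown held 54.3% for Cers2, 68.0% and 56.0% for Gal3st1, and from 46.0% to 77.3% for Sgms1. The entries of genes that were not called lower held 59.3% (Sptlc2), 62.3% (Sptlc1), 62.7% (Kdsr) and 70.0% (Cers6).

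On NCBIM37 (mm9), GENCODE vM1 places Fa2h at chr8:113869035-113917724 on the minus strand, Ugt8a at chr3:125568277-125641468 on the minus strand, Gal3st1 at chr11:3883639-3899329 on the plus strand and Cers2 at chr3:95118714-95127510 on the plus strand. All 10 genes had 1 entry there, 2 of them (Cers2 and Cers6) under an older symbol. Exons of Cers2 overlap exons of Setdb1 by up to 64 bases and of Gm10691 by up to 100 bases, both on the opposite strand, and Sgms1 overlaps 2700046G09Rik by up to 10 bases. Because the sources used here do not give the strand setting of the counting, reads in these stretches cannot be assigned with certainty.

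Beyond the 10 genes, 62 other genes of sphingolipid metabolism were followed in 7 lists, of which 51 were tested. At an adjusted p of at most 0.05 in edgeR, 16 were lower (31.4%, beside 16.2% of all genes tested) and 4 higher (7.84%, beside 15.5%), and 31 did not pass, with a median log2 fold change of -0.23. DESeq2 without its prior called 13 lower and 1 higher (11.3% and 10.3% of all genes), and equal totals gave 7 lower and 9 higher (7.79% and 32.9% of all genes). Without control replicate 3, 16 were lower and 1 higher, Smpd2 (12.4% and 11.1% of all genes).

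The list with the lowest median (-1.53) held 4 chosen genes for the lengthening of fatty acids, and all 4 were lower, where 16.2% of all genes were. With equal totals 3 were lower, beside 7.79% of all genes. Elovl6, which extends palmitate, stood at 1639, 1835 and 1677 normalised counts in control and at 423, 417 and 350.3 in Rnf40ΔSC libraries (log2 fold change -2.12, SE 0.10, edgeR adjusted p = 6.77e-20). Elovl1, which makes very long saturated chains, stood at 794, 852 and 715 in control and at 230.2, 209 and 257 in Rnf40ΔSC libraries (-1.76, SE 0.10, adjusted p = 1.22e-16). Hsd17b12, the reductase of the elongation cycle, followed with -1.30 (SE 0.12, adjusted p = 1.75e-11). The reductase Tecr, named after its values were seen, fell least (-0.43, SE 0.10, adjusted p = 0.000577) and did not pass with equal totals (-0.16, adjusted p = 0.183).

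Among paralogues and regulators of the backbone steps (11 genes, 6 tested), 1 was lower and 1 higher (16.7% each, near the 16.2% and 15.5% of all genes). The ceramide synthase Cers4 stood at 175, 237.5 and 234 normalised counts in control and at 104, 92.8 and 106 in Rnf40ΔSC libraries (log2 fold change -1.10, SE 0.13, edgeR adjusted p = 1.48e-08). Sptssa, a small subunit that activates serine palmitoyltransferase, was higher (0.36, SE 0.12, edgeR adjusted p = 0.0235), but not by DESeq2 (adjusted p = 0.0584). It also did not pass without control replicates 1, 2 or 3 (0.37, 0.36 and 0.34, edgeR adjusted p = 0.0660, 0.0899 and 0.108). Without Rnf40ΔSC replicate 2 the value was 0.19 (edgeR adjusted p = 0.229). Over all alternatives the adjusted p of Sptssa ran from 0.000178 to 0.229. Sptlc3, Sptssb and Cers1 had 0 reads in all 6 libraries.

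Further lists cover other uses of ceramide. Of the 7 sphingomyelin genes tested, 2 were lower and 1 higher (28.6% and 14.3%, beside 16.2% and 15.5% of all genes). With equal totals 0 were lower and 2 higher (Smpd2 and Smpd4), beside 7.79% and 32.9% of all genes. Col4a3bp, which carries ceramide to the Golgi apparatus for sphingomyelin synthesis, was lower (log2 fold change -0.51, SE 0.11, edgeR adjusted p = 0.000362), as was the acid sphingomyelinase Smpd1 (-0.47, SE 0.16, adjusted p = 0.0205), and the neutral sphingomyelinase Smpd2 was higher (0.71, SE 0.21, adjusted p = 0.00990). Ugcg, the gene for glucosylceramide synthesis, stood at 82.6, 68.6 and 75.7 normalised counts in control and at 80.3, 78.4 and 65.4 in Rnf40ΔSC libraries. The genotypes overlapped (log2 fold change -0.015, 95% interval -0.35 to 0.32, edgeR adjusted p = 0.959). The sign turned with libraries scaled to equal totals (0.25), without control replicate 1 (0.037) and without Rnf40ΔSC replicate 3 (0.090). Of the 7 genes tested for glucosylceramide and gangliosides, 3 were lower, B4galt5 (-0.57), St3gal2 (-0.49) and B4galt6 (-0.36), which add galactose or sialic acid (42.9%, beside 16.2% of all genes). This count fell to 0 with equal totals (7.79% of all genes) and to 1, St3gal2, by DESeq2 (11.3%) and without control replicate 2 (13%).

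In the lysosomal list 3 of 12 genes were lower and 1 higher (25% and 8.33%, beside 16.2% and 15.5% of all genes). With equal totals 2 were lower (Galc and Gm2a) and 3 higher (Psap, Sumf1 and Neu1), beside 7.79% and 32.9% of all genes. Galc, which removes galactose from galactosylceramide, stood at 138, 167 and 142 normalised counts in control and at 103, 105 and 87.0 in Rnf40ΔSC libraries (log2 fold change -0.61, SE 0.14, edgeR adjusted p = 0.000639). Arsa, which removes sulfate from sulfatide, stood at 31.8, 50.1 and 35.3 in control and at 22.4, 28.9 and 27.9 in Rnf40ΔSC libraries, a log2 fold change of -0.59 (SE 0.25) that did not pass (adjusted p = 0.0672) and was -0.37 (adjusted p = 0.371) without control replicate 2. Gm2a, the activator protein for ganglioside breakdown, was lower (-0.67, adjusted p = 1.37e-06) and the sialidase Neu1 higher (0.51, adjusted p = 0.0115).

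The sphingosine phosphate list (7 tested) had 1 gene lower, the lyase Sgpl1 (-0.52), and 1 higher, the phosphatase Sgpp1 (0.41), 14.3% each and near the shares of all genes. Equal totals gave 0 lower and 2 higher (Sgpp1 and Cerk), beside 7.79% and 32.9% of all genes. Of 8 genes tested that supply activated galactose and sulfate, Papss2, which makes the sulfate donor of Gal3st1, was lower (-0.64, SE 0.14, edgeR adjusted p = 0.000437), as was Ugp2, which makes UDP-glucose (-0.51, SE 0.11, adjusted p = 0.000610). Papss1, named after its values were seen, makes the same donor as Papss2 and had the higher base mean of the 2 (436 beside 131); its genotypes overlapped and it did not pass (-0.16, adjusted p = 0.224; from -0.22 to -0.070 with each library left out, 0.11 with equal totals). Of the 8 genes 25% were lower, beside 16.2% of all genes, and with equal totals 1, Papss2, beside 7.79% of all genes.

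Several of these calls depended on the test, the scaling or a library. Smpd1, Smpd2, B4galt5, B4galt6, Sptssa and Neu1 did not pass by DESeq2. Of the genes named, Col4a3bp, Smpd1, B4galt5, B4galt6, St3gal2, Sgpl1, Ugp2 and Tecr did not pass with equal totals. Smpd1 was lost without control replicates 1 or 3 or Rnf40ΔSC replicates 1 or 2 (edgeR adjusted p = 0.124, 0.0853, 0.110 and 0.0515), B4galt5 without control replicate 2 or Rnf40ΔSC replicate 1 (0.133 and 0.0571) and B4galt6 without control replicate 2 or Rnf40ΔSC replicates 2 or 3 (0.215, 0.0598 and 0.0643). Neu1 was lost without control replicate 3 or Rnf40ΔSC replicate 1 (0.0574 and 0.0656), Sgpl1 without Rnf40ΔSC replicate 1 (0.0655) and Sgpp1 without control replicate 3 (0.0589). The log2 fold change of B4galt6 was -0.23 without control replicate 2, and that of Sgpl1 was -0.33 without Rnf40ΔSC replicate 1. Elovl6, Elovl1, Hsd17b12, Cers4, Galc, Gm2a and Papss2 stayed lower under every alternative run.

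**Figure D4:**
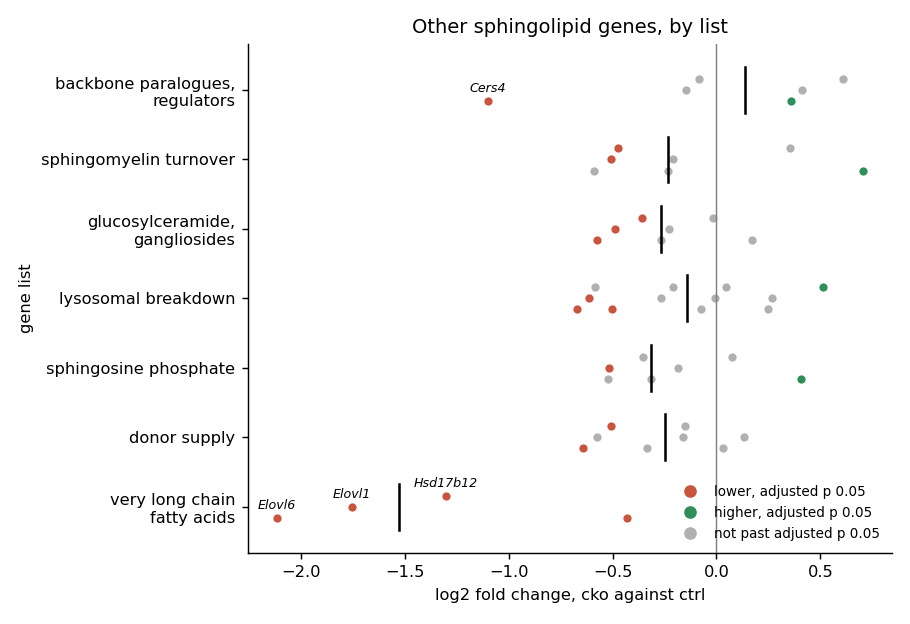
Log2 fold change, Rnf40ΔSC against control, of the 51 other sphingolipid genes tested, a point per gene and a row per list, with a black bar at each median. Red points were lower and green points higher at an adjusted p of at most 0.05 in edgeR, and the elongation genes at -2.12, -1.76 and -1.30 lie far to the left.

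Markers of the cells in the nerve were read beside these results, since in whole-nerve RNA fewer cells of a type and less RNA per cell cannot be told apart. All 3 markers of the Schwann cell lineage were lower: Sox10 (log2 fold change -0.79, SE 0.09), which had the highest base mean, S100b (-0.89, SE 0.10) and Erbb3 (-0.60, SE 0.11). Their summed level was 1051, 1184.5 and 1170 CPM in control and 680, 650 and 633 CPM in Rnf40ΔSC libraries. CPM in all marker sums were scaled by TMM. The ratios of Fa2h, Ugt8a and Gal3st1 to Sox10 were lower in each Rnf40ΔSC library than in any control library.

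Marker transcripts of other cell types changed as well, where 16.2% of all genes tested were lower. These values are RNA levels and not counts of cells. Of the macrophage markers 4 of 7 tested were lower, among them Csf1r, which had the highest base mean (-0.63), and Aif1, near 0, was not tested. The macrophage markers summed to 348, 304 and 328.5 CPM in control and to 222, 215 and 238 CPM in Rnf40ΔSC libraries. Of the endothelial markers 4 of 6 were lower (Cdh5, -0.51), with sums of 769, 688.5 and 782 CPM and 497, 499 and 627 CPM, and of the fibroblast markers 4 of 5 (Col1a2, -0.66), with sums of 28607, 27840 and 30400 CPM and 21380, 20104 and 20793 CPM. These counts depended on the scaling. With equal totals 2 macrophage markers (Cd68 and Csf1r), 1 endothelial marker (Cldn5) and 1 fibroblast marker (Col1a2) were lower and 1 fibroblast marker (Lum) higher. In that fit 7.79% of all genes were lower and 32.9% higher, and Cdh5 no longer passed (-0.24, edgeR adjusted p = 0.0570). DESeq2 called 3, 4 and 3 lower, beside 11.3% of all genes. Both perineurial markers (Cldn1 the more abundant, -0.28) were lower, with sums of 409, 485 and 458 CPM in control and 378, 319 and 332 CPM in Rnf40ΔSC libraries. Cldn1 was not called by DESeq2 (adjusted p = 0.0871), with equal totals (0.925) or without control replicates 2 or 3 or Rnf40ΔSC replicates 2 or 3 (0.235, 0.155, 0.117 and 0.0713). Adipocyte markers were lower in 2 of 7 (Fabp4 the most abundant, not past the test at -0.43, and from -0.62 to -0.21 with each library left out; 1, Plin1, with equal totals and 3 by DESeq2, Adipoq, Car3 and Plin1), with sums of 1905, 1378 and 2449 CPM and 1398, 1227 and 1129 CPM. Of the neuronal markers 2 of 5 were tested, and 1, Snap25, was higher (1.50), where 15.5% of all genes were. Snap25 had few reads, with 3, 6 and 8 raw reads in control and 23, 13 and 23 in Rnf40ΔSC libraries (base mean 11.9). When at least 10 counts were asked for in every library, 0 neuronal markers were tested. Stmn2, the most abundant, did not pass (-0.72). Its value was -1.19 (edgeR adjusted p = 0.0432) without Rnf40ΔSC replicate 1 and -0.42 without Rnf40ΔSC replicate 2. The sums of the neuronal markers were 15.5, 16.3 and 18.6 CPM in control and 26.0, 20.5 and 19.7 CPM in Rnf40ΔSC libraries. The part of these cell types in the results was not tested.

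Muscle RNA varied among the pools. The 12 muscle markers summed to 4565, 3450 and 2546 CPM in control and to 100.2, 253 and 3260 CPM in Rnf40ΔSC libraries, so that Rnf40ΔSC replicates 1 and 2 were low and replicate 3 lay in the control range. None of the 12 passed in edgeR (0 at an unadjusted p of at most 0.05, 0 by DESeq2). Without Rnf40ΔSC replicate 3, however, 10 of the 12 were called lower, where 17.3% of all genes were, with a median log2 fold change of -4.26. Myh4, which had the highest base mean of the 12, changed by -2.16 on the log2 scale (edgeR adjusted p = 0.330). This value became -5.23 (edgeR adjusted p = 0.00842) without Rnf40ΔSC replicate 3, and over all alternatives the adjusted p ran from 0.00842 to 0.520. All galactolipid genes were lowest in Rnf40ΔSC replicate 3, where muscle RNA was highest among the Rnf40ΔSC libraries. In Rnf40ΔSC replicates 1, 2 and 3, Ugt8a stood at 3195, 2640.2 and 2278 normalised counts and Gal3st1 at 148, 142 and 119.7. Fa2h stood at 459.5, 431.6 and 430.9, with replicates 2 and 3 nearly equal. The part of muscle RNA in these values was not tested. Without Rnf40ΔSC replicate 3 the log2 fold changes were -2.31 for Fa2h, -1.23 for Ugt8a, -1.27 for Gal3st1 and -1.04 for Cers2, and the count of lower genes remained 6.

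**Figure D5:**
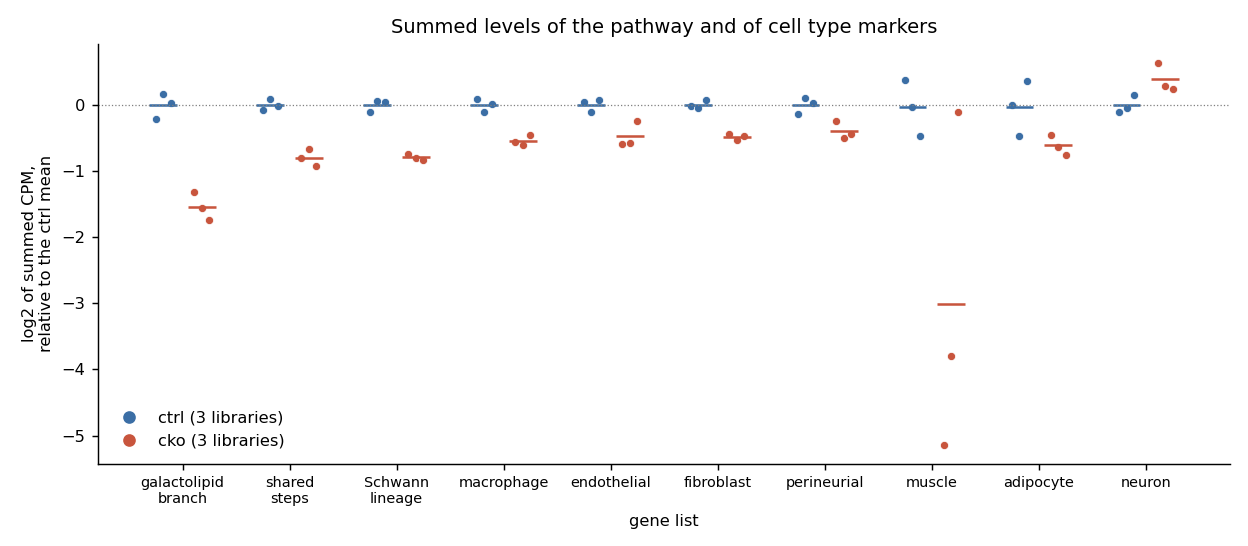
Log2 of the summed TMM-scaled CPM of each gene list in each library relative to the control mean. Control libraries are in blue, Rnf40ΔSC libraries in red, with bars at the means. The galactolipid branch lies below the Schwann cell lineage list in all Rnf40ΔSC libraries, and the muscle list is low in Rnf40ΔSC replicates 1 and 2 alone.

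The genes most like the galactolipid branch were sought among 3917 others whose base mean reached 100, by Pearson's r with the mean log2 CPM of Fa2h, Ugt8a and Gal3st1 over the 6 libraries. They were Mme, which encodes a membrane peptidase, Npc2, a carrier of cholesterol in lysosomes, Gjb1, a connexin of myelinating Schwann cells, Secisbp2l and Kctd10, each with r = 0.999 (n = 6 libraries). This likeness was measured over libraries of both genotypes together, so that a difference between genotypes was part of the choice, and 689 of the 3917 genes had an r over 0.9. Mme had 1302 ± 59.1 normalised counts in control and 683 ± 34.0 in Rnf40ΔSC libraries (SD, n = 3; log2 fold change -0.93), and Gjb1 213 ± 17.8 and 58.8 ± 4.34 (-1.86). The log2 fold changes of Npc2, Secisbp2l and Kctd10 were -0.92, -0.93 and -0.57, and these values describe the genes chosen and test nothing.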

How the data were processed

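Counts per gene of 6 sciatic nerve libraries were taken as deposited. The authors mapped reads to mm9 using TopHat (the submitters' processing notes name Bowtie2 2.1.0 and the builds mm9 and mm10) and counted unique alignments per gene in HTSeq; the deposited counts are raw whole numbers, not normalised. The gene annotation and strand setting are not given in the sources used here. Library totals ran from 1317167 to 2468765 counts, and 0 entries name no gene. Genotype and replicate number came from the labels.

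Genes passing filterByExpr (11371) were scaled by TMM and tested in R 4.3.3 with edgeR 4.0.16 (robust quasi-likelihood fit, genotype as the only term, Benjamini-Hochberg adjustment over all genes tested). A call needed an adjusted p of at most 0.05, and the study's limits added an absolute log2 fold change of 0.8 and a base mean of 20. Standard errors of edgeR fold changes were computed as the absolute log2 fold change divided by the square root of the test's F statistic. The intervals, at 95%, were built from these standard errors with quantiles of the t distribution. Ratios of raw counts were compared by exact two-sided permutation tests in scipy 1.17.1. CPM for the comparison of likeness used a prior count of 2. Lengths and positions came from GENCODE vM1 and promoters from RefSeq. The edgeR fit was tested on simulated counts. Part of the marker genes first listed are not reported here.

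The members and the lists were chosen with earlier results of these data known. Named genes were the 10 members, Rnf40, Ugcg, Galc, Arsa, Col4a3bp, up to 3 genes of each of the 7 other lists with the largest absolute log2 fold change among those called, Sox10, S100b, Erbb3, the gene with the highest base mean of each marker list and the 5 genes most like the galactolipid branch. Further genes, and Papss1 and Tecr, were named after their values were seen, the former only where a count of 5 or fewer singled them out. Alternatives were RLE and total-count scaling, DESeq2 1.42.0 (fold-change prior on or off), leaving out the filter or asking for 10 counts in each library, a replicate block, leaving out each library in turn, no minimum base mean, Cers2 with the galactolipid branch, a pseudocount of 1 in ratios, and, chosen after seeing the data, ratios to Sox10 and of Fa2h to Ugt8a, and the counts per list, Papss1 and Tecr under these alternatives.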

Additional observations from a re-analysis of the deposited data

How the results depend on the processing

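The log2 fold changes of Fa2h, Ugt8a, Gal3st1, Cers2, Degs1 and Sgms1 kept their direction and their side of the threshold under all 13 alternatives each, from -2.44 to -2.07 for Fa2h, -1.47 to -1.08 for Ugt8a, -1.43 to -1.11 for Gal3st1, -1.26 to -0.88 for Cers2, -0.75 to -0.42 for Degs1 and -0.62 to -0.32 for Sgms1. Total-count scaling moved all genes upwards, with 886 called lower and 3740 higher in place of 1841 and 1757; it turned Sptlc2 to 0.019, Papss1 to 0.11 and Ugcg to 0.25, called 1 of the 10 genes higher, gave 7 lower and 9 higher among the wider genes, and moved the median to -1.11 for the galactolipid branch and -0.15 for the shared steps. DESeq2 called 1 wider gene higher with and without its prior. The median of the shared steps was -0.52 with no filter on low counts, which brings in Cers6, and -0.25 with Cers2 counted in the galactolipid branch. With each library left out in turn, the wider genes called higher ran from 1 (without control replicate 3) to 4, the muscle markers called lower from 0 to 10 (without Rnf40ΔSC replicate 3), Ugcg from -0.082 to 0.090, Kdsr from 0.0052 to 0.30, the log2 ratio of Cers2 to Cers6 from -0.99 to 0.23, and that of Gal3st1 to Ugt8a from -0.075 to 0.083; the causes were not tested. With the replicate number as a replicate block, 6 of the 10 genes were lower as before, and 1837 of all genes were lower and 1727 higher. Deviations of samples with the same number correlated at -0.095, -0.015 and -0.062 across genes, and no sample correlated best with that of its own number, so the numbers gave no sign of pairing. Depth limits Cers6 most, with at most 10 reads in a library.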
